A study of Mus musculus with 36 samples.

Results

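Somatostatin (Sst) is a peptide that neurons store in dense-core vesicles, and its messenger RNA level divided the 36 single mouse midbrain neurons of the series into 3 classes. A neuron was placed in the Sst-high class at a deposited Sst value of 300 or more, which held for 21 cells, and in the Sst-low class at a value under 100, which held for 8 cells. The 7 cells between these bounds were left out of the tests and are described beside them. The members of both classes were thus chosen by their measured Sst values, so Sst itself is described and not tested, and every test below is on another gene or on a property that the classification did not use.

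All 36 neurons carried MADM cassettes, a recombination reporter that marks the descendants of a single dividing cell, induced on embryonic day 12. The labels give the genotype of every animal as M11GTTG with an inducible recombinase, either Fz10-CreER or Sox2-CreER, in a mixed C57/Bl6, FVB and CD1 background of both sexes. The letter in a cell's title names its clone, and there are 18 clones of 2 sequenced cells each. The tissue labels are sSC, dSC and PAG, taken here as superficial superior colliculus, deep superior colliculus and periaqueductal grey. The age at collection of these cells is not given in the sources used here, beyond a general range from embryonic day 9.5 to postnatal day 30 for experiments. The labels name no animals, so p-values describe the spread between clones, and clone and animal cannot be told apart.

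Somatostatin acts through inhibitory G-protein-coupled receptors and lowers the excitability and secretion of its target cells. In the brain it is best known from GABAergic interneurons, although glutamatergic neurons can make it too. The precursor is cut by the prohormone convertases Pcsk1 and Pcsk2 and trimmed by carboxypeptidase E. Transcription of the gene responds to cyclic AMP through the factor CREB, which binds a short palindrome in the promoter, the cAMP response element.

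The Sst promoter is shown because the cyclic AMP pathway is one of the gene groups compared below. RefSeq places the gene on the minus strand, and the 250 bases before its start lie at chr16:23890845-23891094 of GRCm38.p6. The capitals mark the cAMP response element, TGACGTCA, which was searched on both strands, reads the same on each, and occurred once, from 48 to 41 bases before the start.
Sst promoter: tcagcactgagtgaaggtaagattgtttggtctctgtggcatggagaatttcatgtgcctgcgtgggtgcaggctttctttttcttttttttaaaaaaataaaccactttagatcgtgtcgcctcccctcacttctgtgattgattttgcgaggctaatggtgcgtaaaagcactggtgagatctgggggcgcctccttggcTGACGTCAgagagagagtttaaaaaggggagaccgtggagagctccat
The same letters were present in 508 of 32851 RefSeq promoter windows (1.55%). Of the 9981 tested genes with a promoter in that table, 317 held the element (3.18%). Their median difference between Sst-high and Sst-low cells was -0.48 on the log2 scale, against -0.37 for the tested genes without it. Among the 67 genes named by the rule given under processing, Btg2, Sstr2, Pcsk1 and Sst held the element. Genes of the text outside that rule, or without a promoter window, were not looked up. A match is a description of these letters and not evidence of binding.

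The Sst values spread over the whole range from 0 to 7033. In the Sst-high cells the lowest value was 326, the median 995 and the highest 7033. In the Sst-low cells the lowest value was 0, the median 13.4 and the highest 63.8, and 3 of the 8 cells were listed at 0. The cells between ran from 138 to 295 with a median of 244. The cell just inside the high class was the sSC cell of clone C at 326, and the one just outside it was the sSC cell of clone U at 295. The cell just inside the low class was the dSC cell of clone B at 63.8, and the one just outside was the sSC cell of clone Q at 138. The gap above the low class is thus wider than the gap below the high class, where the values run on without a break. Some Sst signal was the rule, since 33 of 36 cells had a value of 1 or more. A value of 0 in a single cell can be a failed capture, and the normalised values keep no read depth with which to set a detection limit.

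**Figure D1:**
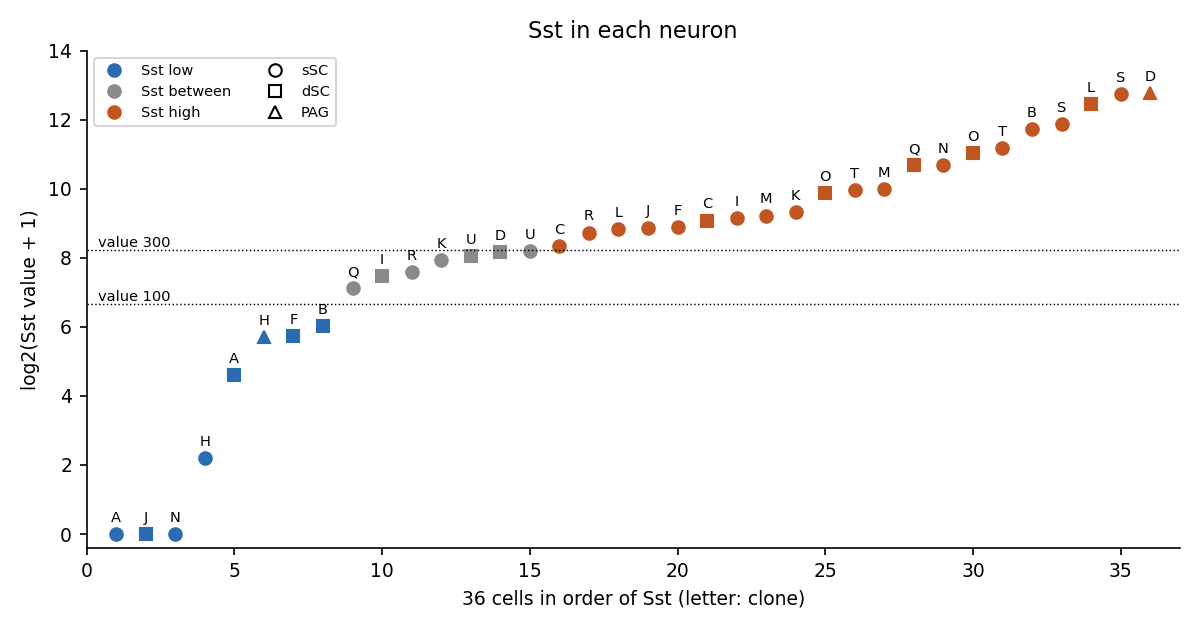
Sst in each of the 36 neurons, in rising order, as log2(value + 1). Each symbol is 1 cell, the letter is its clone, the shape is the tissue label and the dotted lines mark values of 100 and 300. The 8 low cells end at 63.8 and the 21 high cells start at 326.

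Sst-high neurons were found in 15 of the 18 clones and in every tissue label. Of the 21 cells, 15 came from sSC, 5 from dSC and 1 from PAG, and 13 carried Fz10-CreER against 8 with Sox2-CreER. Of the 8 Sst-low cells, 3 came from sSC, 4 from dSC and 1 from PAG, with 4 of each driver. The ratio of sSC to dSC cells was 15 to 5 in the high class and 3 to 4 in the low class, an odds ratio of 4.0 that did not pass Fisher's exact test (two-sided p = 0.175). When the low class was narrowed to Sst under 10, which leaves 4 cells, the ratio was 3 to 1 and the odds ratio 1.0. The drivers gave an odds ratio of 1.62 (two-sided Fisher's exact p = 0.683). These exact tests count cells, and siblings entered them as separate cells.

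Siblings of 1 clone fell in the same class or in different ones. Both cells were Sst high in 6 clones (C, L, M, O, S and T), both were low in clones A and H, and both lay between in clone U. In 5 clones (D, I, K, Q and R) a high cell had a sibling between the bounds. In the other 4 clones (B, F, J and N) a high cell had a low sibling. Clone B had Sst at 3399 in its sSC cell and at 63.8 in its dSC cell. Clone F had 477 in sSC and 52.2 in dSC, and clone J had 469.6 in sSC and 0 in dSC. Clone N had both cells in sSC, with Sst at 1664 in the one and 0 in the other. In the 3 split clones that span tissues, the high cell was the sSC cell each time. The sSC cell also had the more Sst in clones I (571 against 178) and U (295 against 262). The dSC cell had the more in clones A (23.3 against 0), C (541 against 326), L (5640 against 456) and Q (1637 against 138).

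Genes detected (a value of at least 1), the available measure of library quality, ran from 2661 to 15220 in the high class (median 11544) and from 6180 to 15472 in the low class (median 12278). Averaged by clone it was 10689 ± 3054 in the high class (SD, n = 15 clones) and 12100 ± 1203 in the low class (SD, n = 6 clones), with overlapping groups (difference -1412, two-sided exact permutation p = 0.3). The library with the fewest genes was the sSC cell of clone B, an Sst-high cell. Without it the difference was -838 (exact permutation p = 0.388). The 10 largest genes of a cell took 13.7% to 64.7% of its summed values in the high class (median 26.6%) and 20.5% to 34.7% in the low class (median 29.9%). All cells carried neuronal transcripts. Snap25, a vesicle fusion protein, had a median of 2121 in the high class (range 299.8 to 4008) and 2120 in the low class (range 1479 to 3085).

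One gene passed the test across all genes. Of 14364 genes tested between the classes, limma called 1 at an adjusted p under 0.05 (0.00696% of those tested), and it was lower in Sst-high cells. No gene was called higher. At an unadjusted p under 0.05 there were 736 genes, of which 92 were higher in Sst-high cells (0.64% of those tested) and 644 lower (4.48%). After quantile normalisation the same counts were 331 higher and 478 lower. The deposited values leaned one way as a whole: the median difference over all tested genes was -0.34, and 66.0% of them were negative. That lean was -0.14 without the clone B sSC library, -0.00 after quantile normalisation and 0.05 with the number of detected genes as a covariate. Differences are given below as deposited, Sst high minus Sst low, in the mean log2(value + 1) over clone means, and are to be read against that -0.34.

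The gene called was Gm20636, annotated as an antisense transcript of Hps4, a gene of lysosome-related organelle biogenesis on the opposite strand. Reads of the 2 genes cannot be told apart without strand, and its use is not given in the sources used here. In the 8 Sst-low cells its values were 0, 12.2, 12.6, 15.3, 16.3, 32.7, 41.0 and 169.5. In the 21 Sst-high cells it was at 10.6 in the sSC cell of clone C, at 17.98 in an sSC cell of clone M and listed at 0 in the other 19. Nearly every low cell thus carried it and nearly every high cell did not, although the classes overlap. In the 4 clones split between the classes, the low cell had it (41.0 in B, 169.5 in F, 12.6 in J and 12.2 in N) and the high cell was listed at 0. The cells between had it at 27.3, 31.7 and 76.4 in clones R, U and U, and at 0 in the other 4. Gm20636 fell by 4.22 (SE 0.65) in Sst-high cells relative to low cells (limma, adjusted p = 0.00423, n = 15 and 6 clones). The call was lost with tissue as a covariate (-3.66, limma adjusted p = 0.187). That fit also changed the units, to 17 and 8 means per clone and tissue. The call was lost without the PAG cells (-3.86, limma adjusted p = 0.201) and with clone as a fixed replicate block (-5.07, limma adjusted p = 0.899). It was also lost with pseudocount 10, after quantile normalisation and with a high bound of 100 or a stricter one than 300 (limma adjusted p = 0.0651, 0.208, 0.14 and 0.519), and the gene was not tested under 3 further alternatives. It held when each clone was left out in turn, with limma adjusted p between 0.00101 and 0.0447.

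The next genes by p on the lower side did not pass the threshold, with limma adjusted p from 0.23 to 0.287. A130006I12Rik, a pseudogene that lies opposite Pdss1, was at 1 or more in 7 of 8 low cells and 6 of 21 high cells. Its values were very large where present, with a low-class median of 5663 and a highest value of 21654 in a dSC cell of clone O, which is Sst high. The difference was -8.16 (SE 1.70). In the 4 split clones the low cell held it (5252 in B, 7762 in F, 6073 in J and 7818 in N) and the high cell was listed at 0. With clone as a fixed replicate block A130006I12Rik was the 1 gene called (-12.70, limma adjusted p = 0.0249). That fit had 3 residual degrees of freedom, and its difference rests on the same 4 split clones. Gm43695, a processed transcript inside Pisd, showed the same kind of presence or absence, at 1 or more in 6 of 8 low and 5 of 21 high cells (median 1154 against 0, difference -6.63). Nsun6, an RNA cytosine methyltransferase, had a low-class median of 28.1 and exceeded the highest high cell (11.9) in 5 of 8 low cells. The zinc finger gene Zfp790 was present in all 8 low cells (8.18 to 56.0, median 26.6) and in 8 of 21 high cells. Pard6b, a cell polarity adaptor, Rnf207, a RING finger protein, and Zbtb2, a zinc finger repressor, were each at 1 or more in 5 or 6 of 8 low cells and in 3 to 6 of 21 high cells. Pld4 and Selplg, both genes of myeloid cells, are given with the microglial markers below.

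The 10 genes of smallest p on the higher side also did not pass, with limma adjusted p from 0.32 to 0.661. Ramp1, which turns the calcitonin receptor-like receptor into the receptor for calcitonin gene-related peptide, was at 1 or more in 20 of 21 high cells (median 51.3, highest 166) and in 3 of 8 low cells (median 0.171, highest 181). The difference was 3.27 (SE 0.90), and the highest value of all belonged to a low cell. Rab3b, a vesicle GTPase of regulated secretion, had a high-class median of 42.7 with 14 of 21 high cells above the highest low cell (12.0), and a difference of 3.11 (SE 1.08). Ccnd2, the cyclin D2 gene, was above the highest low cell (8.52) in 14 of 21 high cells, with a median of 13.8 against 0 and a difference of 2.60. Its opposite-strand neighbour 9330179D12Rik had a difference of 2.88, and the pair cannot be told apart without strand. Marcksl1, a membrane protein that binds actin and calmodulin, was present in all cells, from 86.9 to 1308 in the high class (median 329) and from 11.6 to 368 in the low class (median 92.8), with a difference of 1.93 (SE 0.60). AC122898.1, a transcript on the strand of Pou3f3, a POU-domain factor, was at 3.91 or more in every high cell (median 48.8) and at a median of 1.11 in low cells. The remaining genes were Gm11574, which lies opposite Mrpl10 and Osbpl7 (3.30), Rilpl1 (3.18), Pter (3.16) and Nmral1 (3.10).

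The transmitter genes were compared first. None of the 6 GABAergic genes passed the test, while 5 of 6 had a positive difference, with a median of 1.41 against -0.34 over all genes. Gad1, a GABA-synthesising enzyme, had a lowest value of 0, a median of 301 and a highest of 1145 in the high class, and 0.507, 47.7 and 642 in the low class. Its difference was 2.34 (SE 1.07, limma adjusted p = 0.965), with 5 high cells above every low cell and 1 low cell above the high median. Gad2, the second such enzyme, had medians of 234.6 and 70.2 and a difference of 0.92 (SE 1.24). Slc32a1, which loads GABA into vesicles, was at 1 or more in 16 of 21 high and 3 of 8 low cells (medians 23.7 and 0.359, difference 1.89, SE 0.99). Of 4 listed glutamatergic genes 3 were tested and none passed, with 1 positive and 2 negative differences and a median of -0.15. That median was negative in 27 of 37 alternatives (-1.36 to 1.07), but below the median of all genes in only 3 of them. Slc17a6, which loads glutamate into vesicles in excitatory neurons of the midbrain, had a median of 42.3 in the high class (range 0 to 849.9) and 312 in the low class (range 0 to 763). Its difference was -1.74 (SE 1.27, limma adjusted p = 0.974), and 6 of the 8 low cells lay above the high median. Slc17a7, another vesicular glutamate transporter, went the other way, with medians of 16.3 in high and 3.48 in low cells. Its difference was 1.54 (SE 0.93, limma adjusted p = 0.974), with 9 high cells above every low cell. The classes overlapped for each of these genes.

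**Figure D2:**
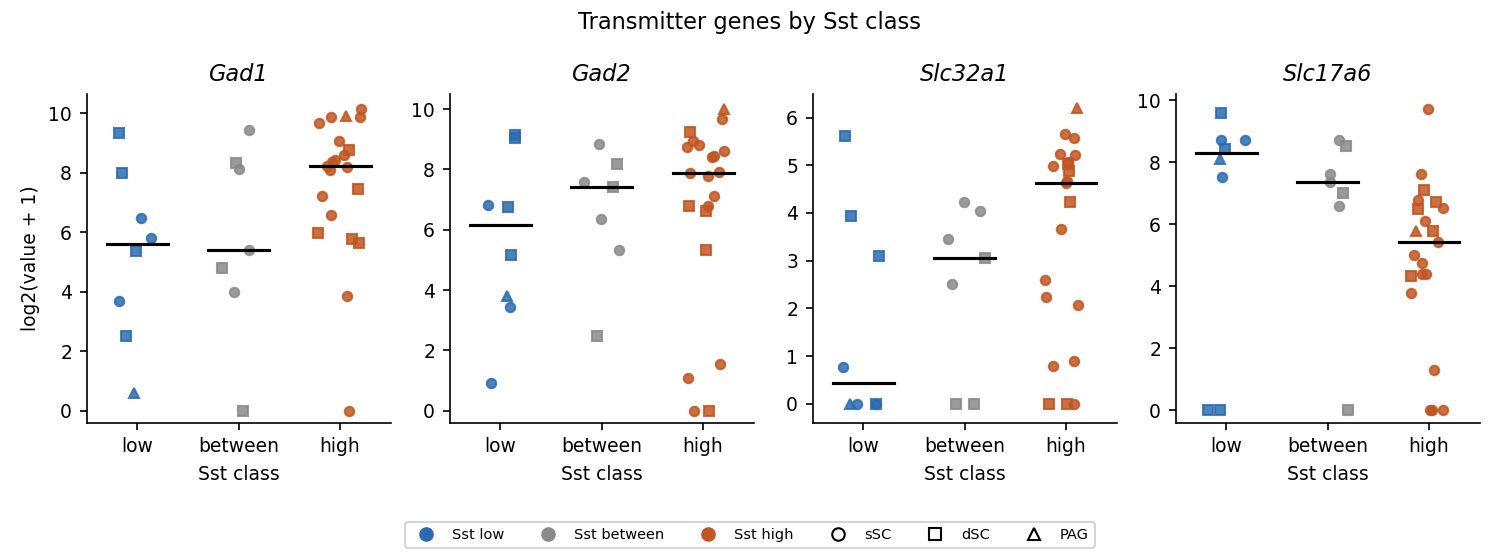
Gad1, Gad2, Slc32a1 and Slc17a6 in each cell of the Sst-low (8 cells), between (7) and Sst-high (21) classes, as log2(value + 1). Each symbol is 1 cell, its shape is the tissue label and the bar is the median. Gad1 medians were 47.7, 41.9 and 301 from low to high, and Slc17a6 medians were 312, 164 and 42.3.

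Transmitter balance sets some of these genes against each other in each cell. On the log2(value + 1) scale, Slc17a6 is subtracted from the average of the GABA genes Gad1, Slc32a1 and Gad2. Slc17a7 is not part of the balance. By clone it was 1.26 ± 4.32 in the high class (SD, n = 15) and -2.20 ± 5.06 in the low class (SD, n = 6), a difference of 3.46 that did not pass (two-sided exact permutation p = 0.13). The low class lay on both sides of 0. Its 4 cells with Sst under 10 had balances of -7.20, -7.02, -5.38 and -3.08, all on the Slc17a6 side. Of its other 4 cells, the dSC cells of clones A and B stood at 7.99 and 6.75, on the GABA side, and the cells of clones H (PAG) and F (dSC) at -6.66 and -3.09. Against the 4 cells under 10 the difference was 6.93 (exact permutation p = 0.00619), and within sSC, with 12 and 3 clones, it was 7.04 (exact permutation p = 0.0308). Without clone B it was 5.05 (exact permutation p = 0.0309). These are the 3 of 23 alternatives on the same cells with a p under 0.05. In the others the exact permutation p ran from 0.0875 to 0.5, for example 0.234 without clone H, 0.283 without clone N and 0.186 with a high bound of 100. Over the 4 split clones the high cell had the higher balance in 2, with a mean difference of 2.51 (exact sign-flip permutation p = 0.5, and 4 pairs cannot go below 0.125).

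The split clones show how far siblings can differ. In clone F the high cell had Gad1 at 944 and Slc17a6 at 20.3, and the low cell had Gad1 at 40.1 and Slc17a6 at 345. Clone N repeated this within sSC, with Gad1 at 817 and Slc17a6 at 42.3 in the high cell and 55.3 and 424 in the low cell. In clone J both cells were rich in Slc17a6, with 849.9 in the high cell and 763 in the low one. In clone B both cells had Slc17a6 at 0, and the low cell had the more Gad1 (258 against 147). The high cell had the more Gad1 in clones F and N, and the low cell had the more in clones B and J. In clone J, Gad1 was at 0 in the high cell and 4.76 in the low one, and Gad2 at 1.92 and 34.6. The high cell of clone B had only 2661 detected genes.

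Transcription factors that mark the midbrain GABAergic and glutamatergic lineages were compared next. Of 17 listed GABAergic lineage factors, 10 had enough signal to be tested, and none passed. Their median difference was 0.93, with 9 positive and 1 negative. Sparse genes reach the level needed for testing more easily through the 21 high than the 8 low cells. The 9 to 1 is to be read with that limit. Gata2 was at 1 or more in 8 high and 1 low cells, Pax7 in 9 and 2, and Lhx5 in 10 and 2. Gata3, a zinc finger factor that acts in midbrain GABAergic differentiation, was at 1 or more in 18 of 21 high cells (median 36.8, highest 258) and in 2 of 8 low cells (median 0, highest 64.8). Its difference was 2.95 (SE 1.10, limma adjusted p = 0.772). The 2 low cells with Gata3 were the dSC cells of clones A and B, at 64.8 and 38.5, which are the pair of low cells on the GABA side of the balance.

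Of 15 listed factors of glutamatergic midbrain neurons 12 were tested and none passed, with 4 positive and 8 negative differences and a median of -1.32. Pou4f2, a POU-domain factor best known from retinal ganglion cells, was at 1 or more in 6 of 8 low cells (median 24.8, highest 359) and in 3 of 21 high cells (highest 130). Its difference was -3.57 (SE 0.88, limma adjusted p = 0.291). The high cells with Pou4f2 were sSC cells of clones L and M and the dSC cell of clone Q, all with a balance on the Slc17a6 side (-4.73, -2.86 and -3.40). Tcf7l2, a Wnt pathway factor, was present in all 8 low cells (6.58 to 290, median 40.8) and had a median of 10.6 in high cells (difference -2.81). Lhx9, a LIM homeobox factor, had medians of 0.646 and 16.3 (difference -2.22), and Barhl2, a homeobox factor, was present in 5 of 21 high and 4 of 8 low cells (difference -1.87). These 4 of 12 factors were the ones with an unadjusted p under 0.05, where 4.48% of all tested genes were lower at that level. The 4 positive members were Ebf2 (1.09), Barhl1 (0.79), Ebf1 (0.78) and Nfib (0.44). Summed over the 15 listed factors, the values had a median of 239 in the high class and 258 in the low class. For that sum, 4 of 8 low cells lay above the high median.

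**Figure D3:**
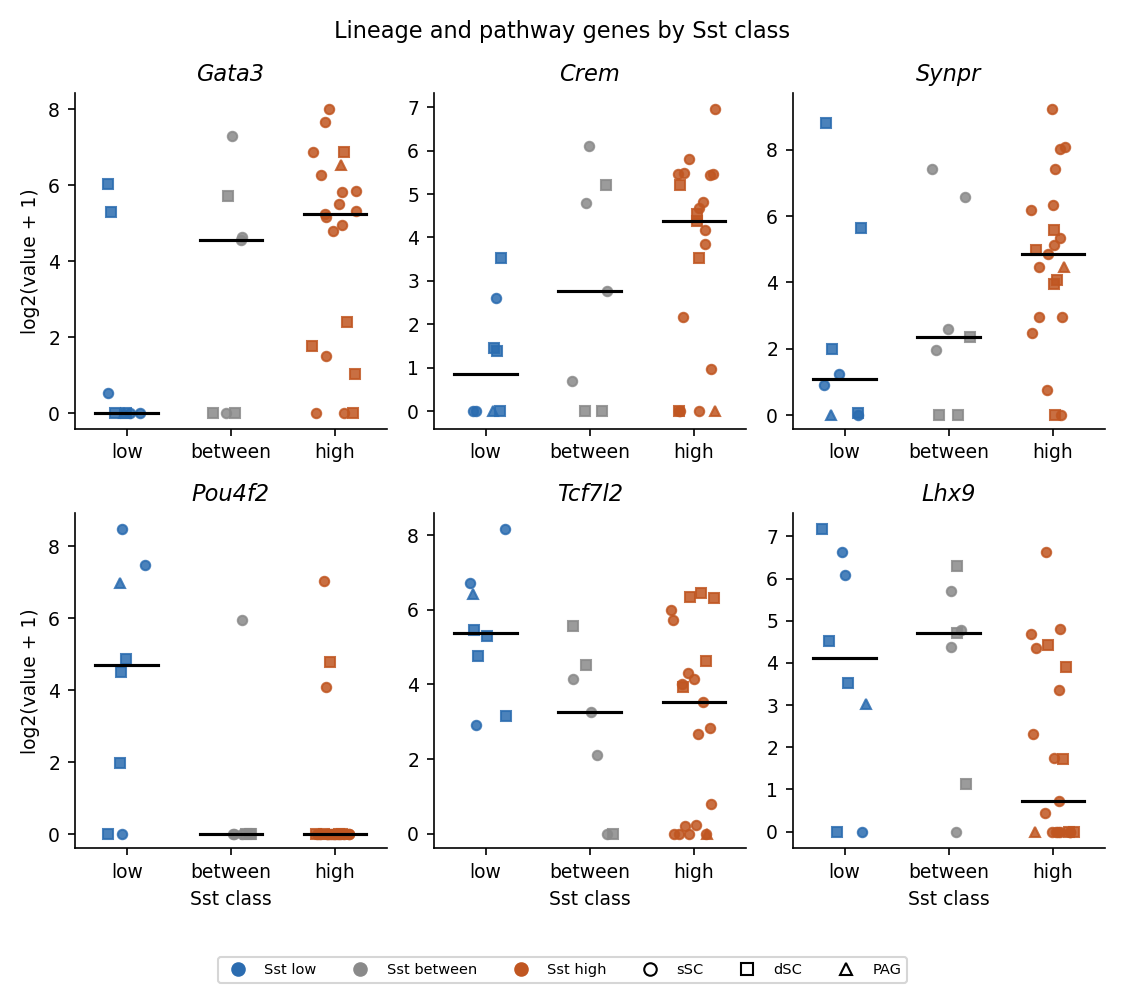
Gata3, Crem, Synpr, Pou4f2, Tcf7l2 and Lhx9 in each cell by Sst class, as log2(value + 1). Each symbol is 1 cell, its shape is the tissue label and the bar is the median of 8 low, 7 between and 21 high cells. Gata3 was at 1 or more in 18 of 21 high and 2 of 8 low cells, and Pou4f2 in 3 of 21 and 6 of 8.

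Factors and markers known from forebrain somatostatin interneurons were compared as well. Of 30 listed genes 18 had enough signal to be tested, none passed, and the median difference was 0.34. The differences were positive in 13 and negative in 5, with the same limit from sparse genes as for the lineage factors. Lhx6, the LIM homeobox factor of forebrain somatostatin interneurons, was at 1 or more in 2 high and 2 low cells, and Nkx2-1 in 1 high and 0 low cells. Other listed members were found more widely. Satb1 was at 1 or more in 16 of 21 high and 5 of 8 low cells, and Reln in 16 and 7. Rbp4 was in 8 and 1, and Crhbp, not tested, in 7 and 0. Synpr, a synaptic vesicle membrane protein, had medians of 27.7 and 1.13 (difference 2.32, SE 1.10, limma adjusted p = 0.965). Nos1, the neuronal nitric oxide synthase, had medians of 3.42 and 1.14 (difference 0.77).

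A relative of the peptide and its receptors were looked at too. Cort, which encodes cortistatin, the closest relative of somatostatin, was at 1 or more in 2 of 21 high, 0 of 8 low and 3 of 7 cells between, and had too little signal to be tested. Sstr1, an inhibitory somatostatin receptor, was present in 5 of 21 high, 3 of 8 low and 4 of 7 cells between. The highest values were 2601, 264 and 2361 in that order, and the difference was 0.15 (SE 1.43). Its sign turned to -0.91 without clone J, whose high cell held the largest value, and it was negative under 11 of 36 alternatives. Sstr2 was at 1 or more in 2 of 21 and 2 of 8 cells, Sstr3 in 4 of 21 and 2 of 8, Sstr4 in 1 and 0, and Sstr5 in none of either class.

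Of 30 other listed neuropeptide precursors 10 were tested and none passed, with 7 positive and 3 negative differences and a median of 0.79, which turned to -0.49 within sSC. Sparse genes were tested more easily through the 21 high than the 8 low cells, which limits the 7 to 3 as well. Tac1, the substance P precursor, was at 1 or more in 17 of 21 high cells (median 40.4, highest 2254) and 3 of 8 low cells, although the largest value, 3750, was in a low cell (difference 2.42, SE 1.53). Penk, the enkephalin precursor, was present in 13 of 21 and 2 of 8 cells (difference 2.00), and Npy, the neuropeptide Y precursor, in 10 of 21 and 2 of 8 (difference 1.83). Cck, the cholecystokinin precursor, had medians of 115 and 21.8 (difference 1.57). The 3 negative members were Pomc (-1.67, SE 0.88), Adcyap1 (-0.32) and Grp (-0.02). Pomc was at 1 or more in 5 of 21 high and 4 of 8 low cells, with 3 low cells above every high cell. Tac1 and Cck had negative differences within sSC (-0.78 and -1.21), and Penk with clone as a replicate block (-0.41).

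The machinery that makes and stores peptides was common to both classes. Of 24 tested genes of dense-core vesicles and prohormone processing none passed, and the median difference was -0.31, close to the -0.34 of all genes. Cpe, carboxypeptidase E, was abundant in every cell, from 859.5 to 6318 in the high class (median 1518) and from 299 to 2568 in the low class (median 1289), with a difference of 0.30 (SE 0.47). Pcsk2 had medians of 47.9 and 92.9 (difference -0.76, SE 0.89), and Pcsk1 was at 1 or more in 10 of 21 and 5 of 8 cells (difference -0.91, SE 0.99). Pam, which amidates peptides, had a difference of -0.05 (SE 0.91).

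Of the genes of cyclic AMP and CREB signalling, all 29 were tested and none passed, with 7 positive and 22 negative differences. Their median was -0.48 as deposited and -0.05 after quantile normalisation. Crem, the cAMP response element modulator, was on the positive side, with a median of 19.7 in high cells and 0.812 in low cells and 14 of 21 high cells above the highest low cell at 10.5. Its difference was 2.02 (SE 0.94, limma adjusted p = 0.965). Ep300, a coactivator of CREB, had medians of 8.32 and 22.5 (difference -2.05, SE 0.92). Creb1 itself had medians of 8.49 and 21.6 and a difference of -1.25.

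Immediate early genes, which neurons transcribe after activity or injury, had a median difference of -1.28 over 19 tested members, with 3 positive and 16 negative and none past the test. Fos was present in all cells of both classes, with medians of 369 and 788 (difference -1.31). Btg2, an antiproliferative gene of this group, had medians of 12.4 and 69.6 (difference -2.86, SE 1.17, limma adjusted p = 0.903). Within sSC the median of the list was 0.25. Heat shock and stress genes had a median of -0.45 over 13 tested, and Xbp1, a factor of the unfolded protein response, was above the high median (73.4) in all 8 low cells (difference -2.15).

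Calcium buffers did not separate the classes. Of 12 tested, 7 were positive and 5 negative, and none passed. Pvalb, parvalbumin, was abundant in both, with medians of 634 and 323 (difference 1.12, SE 1.24), and had negative differences within sSC (-1.13), with clone as a replicate block (-0.74) and against Sst under 10 (-0.96). Calb2, calretinin, had medians of 171 and 70.3 with 9 of 21 high cells above the highest low cell (difference 1.32), and Calb1, calbindin, medians of 57.6 and 283 with 6 of 8 low cells above the high median (difference -1.22).

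No channel, receptor or adhesion gene of the lists passed the test. The median was -0.40 over 25 voltage-gated potassium channels, -0.66 over 25 sodium, calcium and HCN channels, -0.63 over 19 GABA-A and glycine receptor genes, -0.44 over 22 glutamate receptors and -0.56 over 18 synaptic adhesion genes. After quantile normalisation these medians were -0.06, -0.29, -0.26, -0.10 and -0.13. The monoamine and acetylcholine receptors had a median of 0.49 over 20 tested. Among named members, Cbln2, a secreted synapse organiser, had medians of 0 and 85.9 (difference -3.24), Scn3a, an embryonic-type sodium channel, 23.3 and 58.6 (-2.49), Grm8, a metabotropic glutamate receptor, 3.85 and 34.7 (-2.24), Kcna4, a potassium channel, 0 and 5.25 (-1.95), and Cntnap2, an adhesion protein of axons, 41.9 and 89.0 (-1.81). The pan-neuronal list had a median of -0.14.

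**Figure D4:**
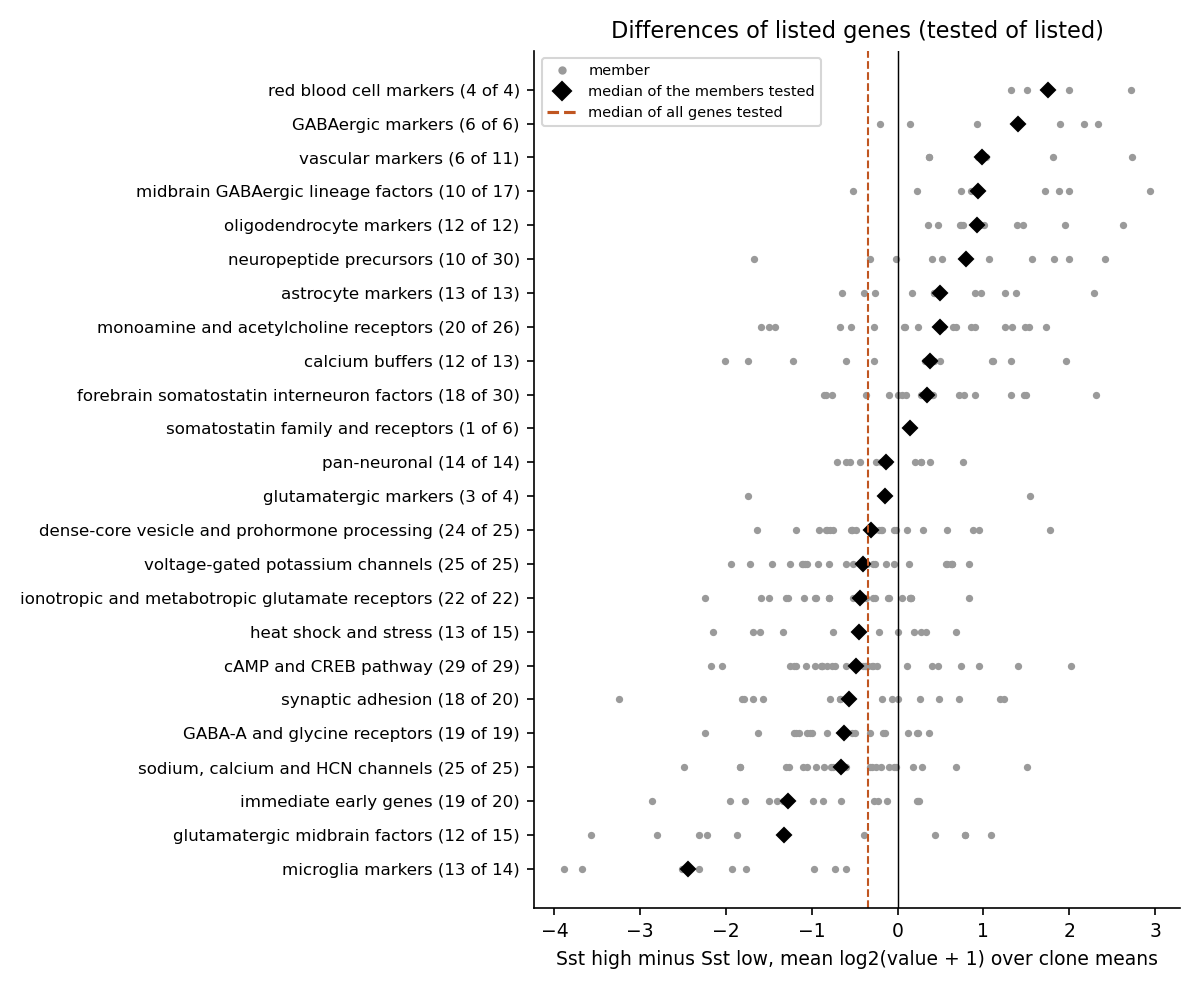
Difference between Sst-high and Sst-low cells, in mean log2(value + 1) over clone means, for every tested member of the 24 gene lists. Grey points are members, diamonds are list medians, the dashed line is the median of all 14364 tested genes (-0.34) and brackets give members tested of members listed. Medians ran from -2.44 for microglia markers to 1.75 for red blood cell markers.

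Transcripts of other cell types were present in these neuron libraries in both classes, and their part in the differences above was not tested. Microglial markers had negative differences in 13 of 13 tested members, none past the test, with a median of -2.44, and 5 of 13 were lower at an unadjusted p under 0.05, where 4.48% of all tested genes were. Summed over the 14 markers, the values ran from 62.2 to 8501 in the high class (median 1917) and from 635 to 13163 in the low class (median 3428), and 5 of 8 low cells lay above the high median. Every one of the 29 cells thus held some of this RNA, and no marker was at 0 throughout a class. P2ry12, a purinergic receptor of microglia, had medians of 86.6 and 365 (difference -3.68, SE 1.19, limma adjusted p = 0.545), and Cd68, a lysosomal protein of phagocytes, 71.0 and 313 (difference -3.89). Csf1r and Trem2, receptors of microglia, had differences of -2.32 and -2.44. Selplg, a selectin ligand of leukocytes and microglia, was present in all 8 low cells (18.5 to 243, median 88.9) and had a median of 5.36 and a highest value of 46.5 in high cells (difference -3.95, SE 0.88, limma adjusted p = 0.23). Pld4, a phospholipase of myeloid cells, was at 1 or more in 6 of 8 low and 5 of 21 high cells (difference -3.17). The median of the microglial list was negative under all 37 alternatives, from -3.93 to -1.45.

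**Figure D5:**
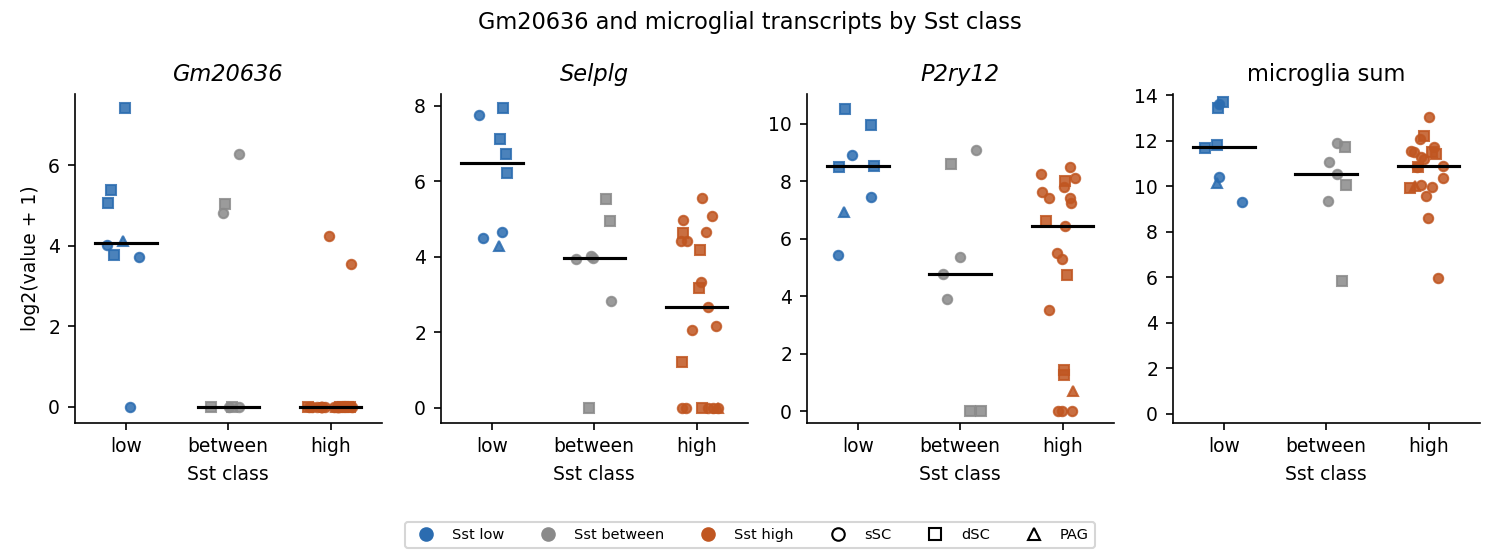
Gm20636, Selplg, P2ry12 and the sum of the 14 microglia markers in each cell by Sst class, as log2(value + 1). Each symbol is 1 cell, its shape is the tissue label and the bar is the median. Gm20636 was at 1 or more in 7 of 8 low and 2 of 21 high cells, and the microglial sum ran from 635 to 13163 in low and from 62.2 to 8501 in high cells.

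Transcripts of oligodendrocytes, astrocytes, vessels and blood leaned the other way, with none past the test. Oligodendrocyte markers had positive differences in 12 of 12 (median 0.93), and their sum had a median of 4461 in the high class (1512 to 29584) and 1958 in the low class (1192 to 7040). Astrocyte markers were positive in 10 of 13 (median 0.50), with summed medians of 2694 (1056 to 13768) and 1686 (802 to 3635), and Fgfr3, a growth factor receptor of astrocytes, was at 1 or more in 11 high and 0 low cells. Vascular markers were positive in 6 of 6 tested of 11 listed (median 0.99), with summed medians of 52.7 (0 to 1238) and 3.69 (0.38 to 166). Dcn, a matrix proteoglycan of fibroblasts, was at 1 or more in 12 of 21 high cells and listed at 0 in all 8 low cells, and Pdgfrb, a receptor of pericytes, in 9 and 0. Dcn, Pdgfrb and Fgfr3 passed the filter through high cells alone, so their positive signs followed from the filter. Sparse genes pass it more easily through 21 high than 8 low cells, and the 6 of 6 is to be read with that limit. The 4 globin genes were positive (median 1.75), with summed medians of 722 (0 to 9623) and 199.9 (4.72 to 6691), and Hbb-bt had medians of 41.2 and 0. With clone as a replicate block the medians were -0.29 for oligodendrocyte and -0.21 for red blood cell markers.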

How the data were processed

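SMART-Seq Single Cell PLUS libraries of polyadenylated RNA were made from 36 single neurons, per the labels' protocols. The submitters' processing notes list the aligner STAR 2.7.9a, the build GRCm39 and R 4.0.3; the counter and the use of strand were not given in the sources used here. Values as deposited are a normalised expression signal, called TPM over exons and introns by the authors; every cell sums to 2000000, so they were not treated as plain TPM, and read depth is unknown. Symbols matched 52083 of 55359 genes.

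Values were taken as log2(value + 1), which understates differences of low genes. A gene was tested if 25% of the 29 compared cells or more had it at 1 or above. A gene can pass through 1 class alone, more easily through the 21 high cells than through the 8 low ones. Cells of 1 clone and class were averaged, giving 15 and 6 clone means. The main test was limma 3.58.1 (R 4.3.3), with a robust, trended eBayes step, Benjamini-Hochberg adjustment and a threshold of 0.05. It was also run on simulated data. The changes planted there had normal noise, unlike genes with many zeros, so the power in these cells is not known. Single values used two-sided exact permutation tests over clone means (Python 3.11.15, scipy 1.17.1). The 4 clones split between the classes pair cells of 1 animal by design; their deviations correlated between -0.0003 and 0.0418. Named genes are the 10 per direction of smallest p, up to 4 per list at an unadjusted p under 0.05, and a fixed set. Others were named after their values were seen (Creb1, Fos, Lhx6, Nkx2-1, Sstr4, Sstr5, Slc17a7, Ebf1, Ebf2, Barhl1, Nfib, Pomc, Adcyap1, Grp). Gata2, Pax7, Lhx5, Satb1, Reln, Crhbp and Rbp4 were also named in this way. Some results that the rule gives are left out of the text. The classes, lists and rule were chosen with earlier results of these data known. Gene types and overlaps came from GENCODE M21 and promoters from RefSeq, both of an older build, so no other positions are given. Alternatives changed the pseudocount, filter, scaling, unit, block, covariates, tissues, Sst bounds and clones.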

Additional observations from a re-analysis of the deposited data

Results flagged for a closer look

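Among 65 groups of 6 Sst-low clone means that were checked, 9 held a clone far from the others (13.8%). A chance share of about 1 in 20 does not apply where the other clones are all at 0. Any value above 0 is then marked, which held for Nmral1, Npy, Fgfr3 and Pdgfrb. The 13.8% is thus no evidence that clones differ more than by chance. In clone H the mean number of detected genes was 9787, against 12161 or more in the other 5 clones, and Tac1 reached 10.67 on the log2 scale, against at most 3.75. Nmral1 was at 1.78 in clone H and 0 in the others. In clone A, Npy was at 6.34, Fgfr3 at 0.30 and Pdgfrb at 0.23, each with 0 in the other clones. No low cell had Fgfr3 or Pdgfrb at 1 or more. In clone B, Pvalb and Calb1 were at 0, against at least 8.14 and 6.78 in the others, and Penk was at 7.26, against at most 2.61. The clone B value is its dSC cell, 1 of the 2 low cells with a transmitter balance on the GABA side.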

How the results depend on the processing

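The data hold 6 Sst-low clones, no read depth and single cells in which 0 can be failed capture, and 4 clones appear in both classes. The count of 1 gene past the limma threshold became 0 with pseudocount 10, the 50% filter, quantile normalisation, tissue as a covariate, sSC only, no PAG cells, and each of the 3 other Sst bounds; genes at an unadjusted p under 0.05 then numbered 383 to 909. It became 2 without a filter and 1 to 2 with each clone left out: Gm43695 joined without clone D, Nsun6 without J, and A130006I12Rik without O or Q. With clone as a fixed replicate block, which left 3 residual degrees of freedom, 1 gene passed. It was A130006I12Rik (-12.70, limma adjusted p = 0.0249), not Gm20636. With the block as a random effect 1 passed.

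Gm20636 was -1.79 with pseudocount 10 (limma adjusted p = 0.0651), -3.28 after quantile normalisation (0.208), -3.74 with Sst of 100 or more (0.14) and -4.01 with the strictest high bound (0.519); it was not tested under the 50% filter, in sSC only or against Sst under 10. Leaving out each clone moved the difference in detected genes between -1874 and -810, and in transmitter balance between 2.704 and 5.05. Detected genes differed by 214 in sSC only and 122 against Sst under 10; balance by 7.04 and 6.93; the tissue odds ratio was 1.0 against Sst under 10. With clone as a replicate block, detected genes differed by -3491 and balance by 2.51 over 4 pairs, and Gad2 (-0.81), Pvalb (-0.74), Penk (-0.41) and Pam (0.26) changed sign.

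Signs also turned with balance as a covariate (Gad2 -0.51, Slc17a6 0.31, Calb1 0.12, Pam 0.29), which says nothing of Gad2 and Slc17a6 since balance is computed from them, in sSC only (Pvalb -1.13, Tac1 -0.78, Cck -1.21, Pcsk1 1.14, Pcsk2 0.47, Pam 0.084, Sstr1 -3.06) and against Sst under 10 (Pvalb -0.96, Sstr1 -1.43). Pam, near 0, was 0.040 with pseudocount 10, 0.32 after quantile normalisation, 0.39 with detected genes as a covariate, 0.013 with Sst of 100 or more, 0.35 without the clone B sSC library and -0.65 to 0.35 with a clone left out. Sstr1 was -0.14 with pseudocount 0.1, -0.48 with tissue as a covariate and -0.91 to 1.51 with a clone left out. Snap25 was 0.14 with detected genes as a covariate and 0.10 without the clone B sSC library, and -0.23 to 0.10 with a clone left out. Causes were not tested.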
